A study of Mus musculus with 118 samples.

Results

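Of the single cells sequenced from SOM-Cre/Ai9 mice, 36 kept *Sst*-expressing interneurons carried at least 1 read of *Pvalb*, the gene of the calcium-binding protein parvalbumin, and were set against the 73 kept cells with no *Pvalb* read. The cells came from layer 4 (L4) and layer 5 (L5) of the visual (V1) and somatosensory (S1) cortex of adult mice. In V1, 42 of 44 L4 cells and 17 of 19 L5 cells were kept, and in S1, 34 of 39 L4 cells and 16 of 16 L5 cells. The groups were chosen by the *Pvalb* count itself, so its difference between them is no finding here. The differences between the groups given below are of other genes. Shares and levels of *Pvalb* by area and layer, and correlations with it, only describe the split. A cell was kept with at least 1500 detected genes, no more reads of the glutamatergic gene *Slc17a7* than of the GABA-synthesis genes *Gad1* and *Gad2* together, and at least 1 read of *Sst*. The 9 cells left out were 4 with too few genes, 1 glutamatergic cell and 4 without an *Sst* read. In these animals Cre from the *Sst* locus switches on the red marker tdTomato, which also stays on in cells that expressed somatostatin only earlier in life. RNA was drawn into the recording pipette (Patch-seq) and amplified with a protocol based on Smart-seq2, in which molecules carry no identifiers. Since animals are not named in the labels, an area and layer counts as 1 sample. Cells are not replicates, and neither p-values nor standard errors were computed.

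Somatostatin (SOM) and parvalbumin (PV) interneurons both arise from the medial ganglionic eminence, and the adult cortex is usually divided into SOM cells that target dendrites and PV cells that target somata or axon initial segments. PV basket cells are fast-spiking: Kv3 potassium channels repolarize the membrane quickly and Nav1.1 sodium channels sustain high firing rates. Parvalbumin buffers calcium in their terminals, and many of them are wrapped in perineuronal nets, a matrix of chondroitin sulphate proteoglycans.

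The Pvalb-positive cells were deeper than the Pvalb-negative cells. Reads counted on genes numbered 487006 to 3295232 in a positive cell, with a median of 1621904, and 97904 to 2978619 in a negative cell, with a median of 969686. The positive cells had 6950 ± 1747 detected genes and the negative cells 6103 ± 1508 (SD over cells, n = 36 and 73). Cut down to 250000 reads per cell, they still had 6349 ± 1548 and 5718 ± 1288 (n = 36 and 70, 3 negative cells being shallower than that). Differences were therefore also fitted with area and layer, detected genes and log10 total count as covariates, and this value is called the depth-adjusted difference below. No 2 cells had identical counts.

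**Figure D1:**
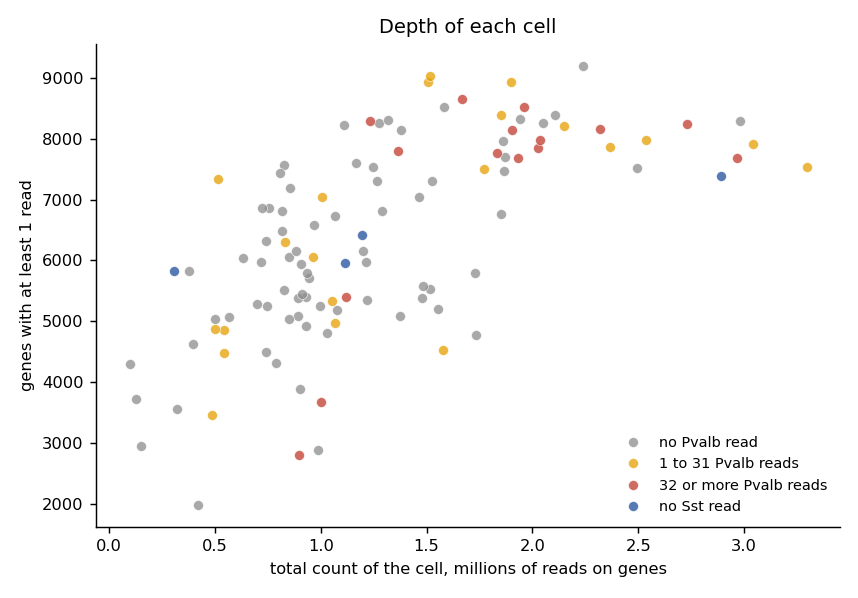
Total count of each cell, in units of 1e6 reads on genes (x axis), against the number of genes with at least 1 read, for 73 cells with no Pvalb read, 21 with 1 to 31 reads, 15 with 32 or more, and 4 cells with no Sst read. Most cells with 32 or more Pvalb reads lie in the upper right of the cloud, and their median total was 1903091 counts.

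*Pvalb* (chr15:78191114-78206400 on GRCm38, minus strand) had low read counts in most of the 36 cells. Its count ranged from 1 to 762 with a median of 28, or from 0.659 to 257 CPM (the count divided by the cell's total and multiplied by 1e6) with a median of 17.4 CPM. Of the 36 cells, 15 had 32 or more reads and 21 had 1 to 31. Just inside the threshold lay 3 cells with 1 read and 2 with 2 reads, and just outside it lay the 73 cells with none. In the negative cells, a count of 0 allowed up to 3.09 CPM in the median cell and 30.6 CPM in the shallowest, taking 3 reads over the total as the limit. Such limits cover counting error of reads only, since reads without identifiers are not independent molecules. The intervals below cover the counting of cells only, as if cells were independent. They do not cover a spread over animals or recording days. The glutamatergic cell that was left out had 0 *Pvalb* reads among 759764.

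By area and layer, the share of cells with a *Pvalb* read was 52.9% in S1 L4 (18 of 34 cells, 95% Clopper-Pearson interval 35.1% to 70.2%) and 43.8% in S1 L5 (7 of 16 cells, 19.8% to 70.1%). It was 23.8% in V1 L4 (10 of 42 cells, 12.1% to 39.5%) and 5.88% in V1 L5 (1 of 17 cells, 0.149% to 28.7%). At 250000 reads per cell the shares were 41.2%, 40%, 23.8% and 6.67%, in the same order. Shares also differed by recording day, read from the sample titles. All L5 cells came from days 3 to 6, on which 2 of 16, 5 of 12, 4 of 14 and 1 of 10 cells were positive. Days 7 to 9 held L4 cells only, with 9 of 21, 6 of 11 and 4 of 7 positive. The order of L4 and L5 is thus mixed with that of the days. Of the cells with 32 or more reads, 10 were from S1 L4, 4 from V1 L4 and 1 from S1 L5, so most of the strongly read cells were from L4. Among the positive cells the median *Pvalb* level was highest in S1 L4, at 44.5 CPM, beside 16.7 CPM for V1 L4 and 6.65 CPM for S1 L5, and the ranges of these groups overlapped. Across the 36 positive cells, which differ in depth, *Pvalb* and *Sst* levels had a Spearman's rho of 0.02.

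**Figure D2:**
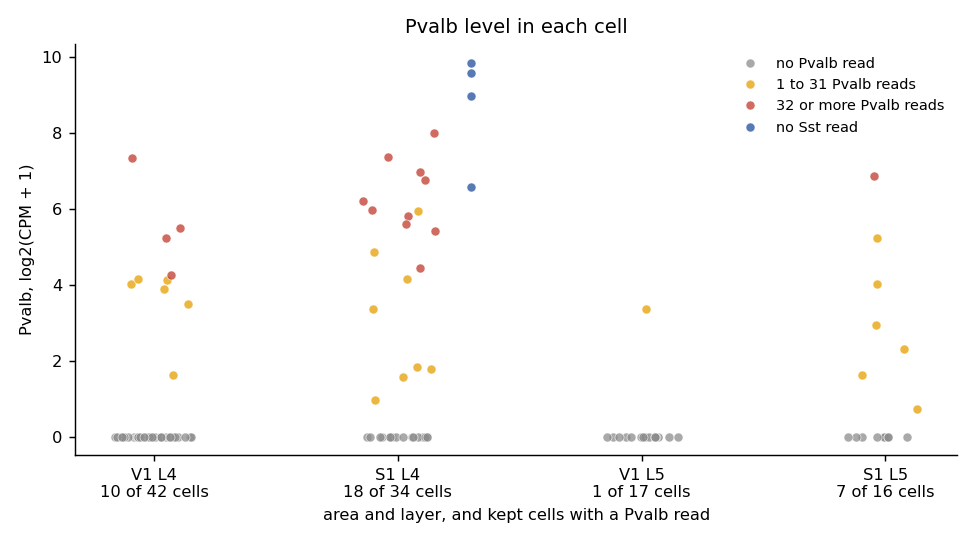
Pvalb level of each kept cell, as log2(CPM + 1), by area and layer, with the 4 cells without an Sst read set to the right of S1 L4. Under each group stand the cells with a Pvalb read among the kept cells, 10 of 42, 18 of 34, 1 of 17 and 7 of 16.

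Among genes that the choice of cells did not use, 9989 had at least 32 counts in at least 10 kept cells. The difference of a gene is the mean log2(CPM + 1) of the positive cells minus that of the negative cells. A gene was called when this difference was at least 1 in size and had the same direction in V1 L4, S1 L4 and S1 L5, and V1 L5 could not be compared with 1 positive cell. In all, 1097 genes (11%) were called higher and 65 (0.651%) lower in the positive cells. The whole distribution was shifted upward: the median difference of all genes was 0.34, and 72.1% of genes had a difference above 0. After depth adjustment the median was -0.01, with 494 genes (4.95%) at 1 or more and 510 (5.11%) at -1 or less. Of the 1097 genes called higher, 386 kept a depth-adjusted difference of at least 1, and of the 65 called lower, 59 stayed at -1 or less. Recording days, of which 7 held at least 2 cells of each kind, spread widely, with a median SD over days of 1.51 per gene. No gene separated the groups without overlap over single cells.

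**Figure D3:**
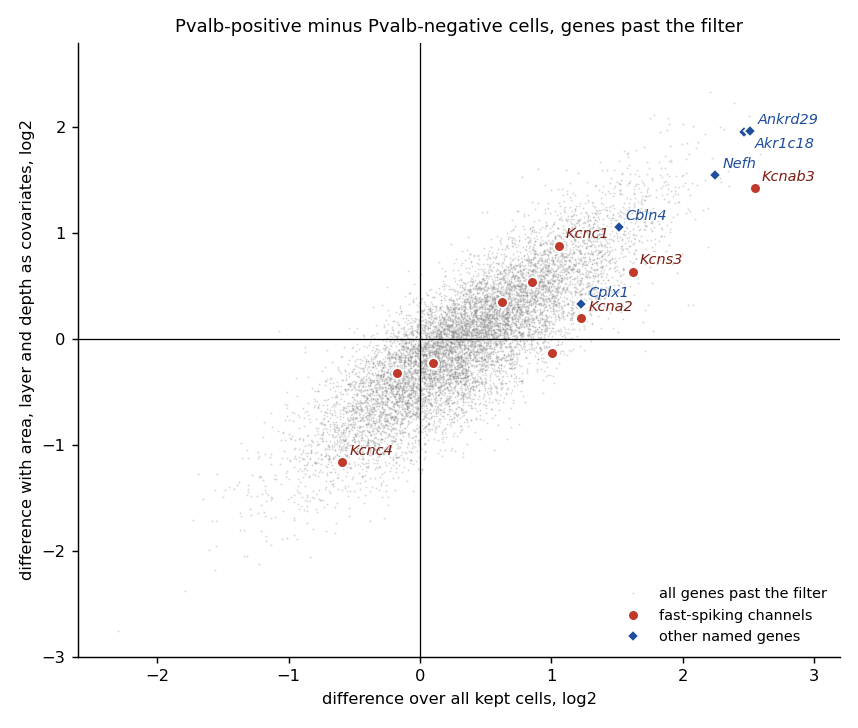
Difference of each of 9989 genes between Pvalb-positive and Pvalb-negative cells over all kept cells (x axis, log2) against the depth-adjusted difference (y axis, log2), with fast-spiking channel genes in red and 5 other named genes in blue. The cloud is centred right of 0 on the x axis and at 0 on the y axis, and Kcnab3, Nefh, Akr1c18 and Ankrd29 lie at its upper right end.

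The fast-spiking channel genes came first. Of 13 genes, 12 passed the filter, 4 were called higher and 0 lower, beside 11% and 0.651% of all genes, and the median difference was 0.75, beside 0.34 over all genes. After depth adjustment the list's median was 0.27, and 1 gene stood at 1 or more and 1 at -1 or less, beside 4.95% and 5.11% of all genes. The genes called were *Kcnab3*, *Kcns3*, *Kcna2* and *Kcnc1*. They differed in how far the call depended on 1 area or on depth.

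*Kcnab3*, which encodes an auxiliary beta subunit of Kv1 potassium channels (chr11:69326258-69333042), was read in 33 of 36 positive and 52 of 73 negative cells. It ranged from 0 to 1959 CPM with a median of 188 CPM in the positive cells, and from 0 to 603 CPM with a median of 61.9 CPM in the negative cells. The positive cells thus had the higher median and the highest values, and the ranges overlapped. The difference was 2.55 over all cells, 1.80 in V1 L4, 2.75 in S1 L4 and 2.27 in S1 L5, and within days it was 2.44 ± 1.69 (SD over 7 days, above 0 in 6). The depth-adjusted difference was 1.43. At 250000 reads per cell, 91.7% of positive and 70% of negative cells still had a read. The single positive V1 L5 cell had no *Kcnab3* read. An antisense transcript, *Kcnab3os*, overlaps the gene in GENCODE M21, and reads of the 2 cannot be told apart where the counting did not use strand.

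*Kcns3*, a silent subunit that modifies Kv2 channels and is known for its expression in PV basket cells (chr12:11090202-11151056), was read in 25 of 36 positive and 31 of 73 negative cells. The positive cells reached 591 CPM with a median of 49.9 CPM, and the negative cells reached 1028 CPM with a median of 0. The highest *Kcns3* level was thus in a negative cell, from V1 L4. The difference was 1.62 over all cells and between 1.12 and 1.39 in the 3 groups, above 0 in 7 of 7 days (2.36 ± 2.05, SD), with a depth-adjusted difference of 0.64. Without recording day 4 it was 1.53, but no longer of 1 direction in all groups.

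*Kcnc1*, which encodes Kv3.1, the channel most closely tied to fast spiking (chr7:46396497-46438704), was read in 36 of 36 positive and 70 of 73 negative cells. It ranged from 2.05 to 814 CPM with a median of 355 CPM in the positive cells, and from 0 to 1237 CPM with a median of 169.1 CPM in the negative cells. Kv3.1 transcripts were therefore present in nearly all SOM cells, with or without *Pvalb*. The difference of 1.06 came mostly from S1 L4: it was 2.07 there, 0.37 in V1 L4 and 0.01 in S1 L5. In S1 L4 the median was 383 CPM in 18 positive cells and 245 CPM in 16 negative cells, 3 of which had no read. Without S1 L4 the difference was 0.44, and within days it was 0.83 ± 1.15. The depth-adjusted difference was 0.88.

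*Kcna2*, which encodes the axonal channel Kv1.2, differed by 1.23 over all cells, but by 0.34 in S1 L4 and 0.51 in S1 L5, and the depth-adjusted difference was 0.20. Its positive cells ranged from 0 to 2360 CPM with a median of 85.4 CPM, against 0 to 1035 CPM and 44.6 CPM. Of its alternatives, 12 of 29 ended the call.

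No other channel gene was called. *Kcna1* (Kv1.1) differed by 1.0, with opposite directions in V1 L4 (2.20) and S1 L4 (-1.43), and its depth-adjusted difference was -0.13. *Scn1a* (Nav1.1) differed by 0.85 (0.54 after depth adjustment) and was read in 36 of 36 positive and 69 of 73 negative cells. *Kcnc2* (Kv3.2) differed by 0.62 (0.35 after depth adjustment). *Scn8a* (Nav1.6) differed by 0.10, *Cacna1a*, the pore of P/Q-type calcium channels, by -0.17 and *Kcnc4* (Kv3.4) by -0.59, with -1.16 after depth adjustment. *Scn4b* did not pass the filter, with reads in 9 of 36 positive and 5 of 73 negative cells.

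**Figure D4:**
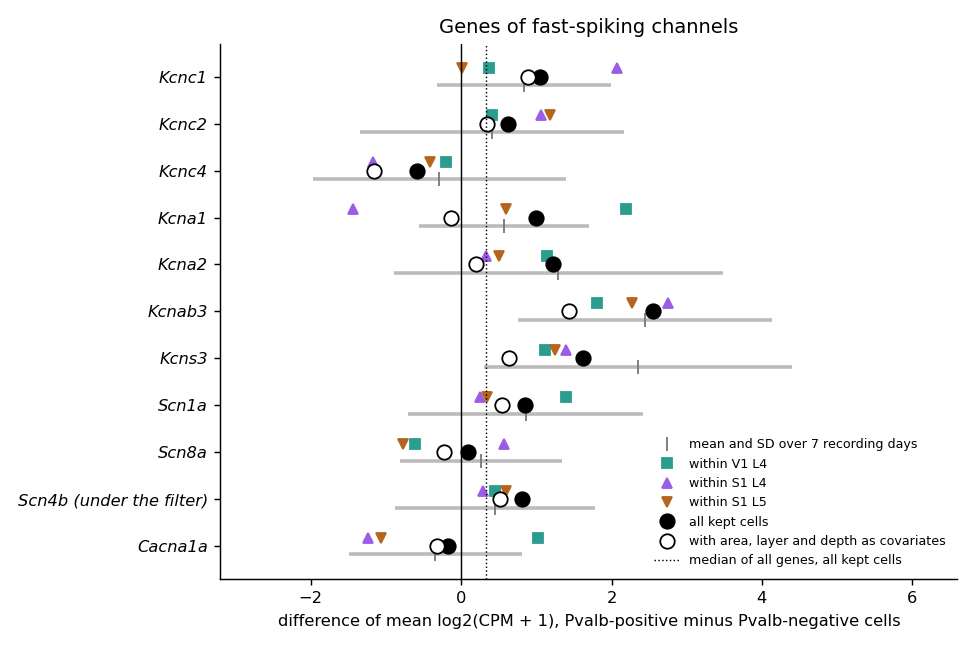
Differences of 11 fast-spiking channel genes, Pvalb-positive minus Pvalb-negative cells, on the scale of log2(CPM + 1): over all kept cells (filled circle), with area, layer and depth as covariates (open circle), within V1 L4, S1 L4 and S1 L5 (coloured symbols), and as the mean (tick) and SD (grey bar) over 7 recording days, with the median of all genes as a dotted line. Kcnab3 lies farthest right at 2.55 and Kcnc4 farthest left at -0.59, and the day bars of most genes cross 0.

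Other genes typical of PV neurons ranged from widely read to nearly absent. Of 14, 10 passed the filter, 3 were called higher and 0 lower, beside 11% and 0.651% of all genes. Their median difference was 0.33, close to the 0.34 of all genes, and 0.01 after depth adjustment. *Nefh*, the heavy neurofilament subunit of thick axons (chr11:4938754-4948064), was read in 30 of 36 positive and 45 of 73 negative cells. Its median was 86.6 CPM in the positive and 4.16 CPM in the negative cells, with highest values of 682 and 399.6 CPM, and the ranges overlapped. The difference was 2.24 over all cells, 1.23 in V1 L4, 2.97 in S1 L4 and 0.79 in S1 L5, and 1.55 after depth adjustment. Within days it was 1.57 ± 2.39 (SD, above 0 in 5 of 7), so the spread over days was larger than the mean.

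*Cplx1*, complexin 1 of the vesicle release machinery, had a median of 1454 CPM in the positive and 617 CPM in the negative cells. Its difference of 1.22 was above 0 in 7 of 7 days, and the depth-adjusted difference was 0.33. *Lrrc38*, a modulator of BK potassium channels, was read in 9 of 36 positive and 3 of 73 negative cells, and differed by 1.19 (1.26 after depth adjustment). Without recording day 9 that was 0.94. Too few negative cells had reads for *Lrrc38* to pass the filter without positive cells, so its call is partly set by the filter. *Ppargc1a*, the coactivator PGC-1α, differed by 1.18 but by -0.61 in S1 L5, and *Mef2c*, *Ank1*, *Esrrg* and *Eya4* differed by 0.13 to 0.30. *Erbb4*, the neuregulin receptor, was read in 8 of 36 positive and 21 of 73 negative cells, with a difference of -0.64.

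The fast synaptotagmin *Syt2* was read in 1 positive and 0 negative cells, the muscle-type cytochrome oxidase subunit *Cox6a2* in 4 and 3, the tachykinin precursor *Tac1* in 1 and 1, and *Ostn* in none. The Pvalb-positive SOM cells thus held few or no reads of these genes.

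Of 8 perineuronal net genes, 4 passed the filter and 0 were called, beside 11% called higher and 0.651% lower of all genes. With 4 genes, 0 calls is near these shares. The median difference was 0.75, beside 0.34 over all genes. It was -0.44 within S1 L4, and 0.28 after depth adjustment. *Bcan* (brevican) was read in 28 of 36 positive and 33 of 73 negative cells and differed by 1.62 (0.90 after depth adjustment), but by -0.42 in S1 L4. *Hapln4*, a link protein, differed by 1.16 (0.24 after depth adjustment) and by -0.58 in S1 L5. *Acan* (aggrecan), the core protein of the nets, was read in 2 positive and 1 negative cells.

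Among 14 genes that name PV types in a reference atlas, 5 passed the filter, 2 were called higher and 0 lower, beside 11% and 0.651% of all genes, with a median difference of 0.66 before and after depth adjustment. *Akr1c18*, an aldo-keto reductase (chr13:4132615-4150654) with close paralogs in the genome, was read in 17 of 36 positive and 11 of 73 negative cells. Too few negative cells reached 32 counts for *Akr1c18* to pass the filter without positive cells. Its call is thus partly set by the filter. Its reads were more frequent in cells with 32 or more *Pvalb* reads, which were also the deepest set. It was read in 12 of 15 cells with 32 or more *Pvalb* reads, with a median of 454 CPM and a highest value of 778 CPM, in 5 of 21 cells with 1 to 31 reads, with a highest value of 240 CPM, and in negative cells up to 249 CPM. Within S1 L4 these shares were 8 of 10, 2 of 8 and 4 of 16 cells, and within V1 L4 3 of 4, 2 of 6 and 5 of 32. The difference was 2.47 over all cells and 1.96 after depth adjustment. It was 5.29 for the cells with 32 or more reads and 0.45 for those with 1 to 31, both without depth adjustment. Within days it was 2.22 ± 2.71 (SD, above 0 in 5 of 7). *Tpbg*, a membrane glycoprotein, differed by 1.23 and by 0.69 after depth adjustment. The named PV-type genes *Ntf3*, *Islr* and *Vipr2* had no read in any kept cell.

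Of 29 genes that name SOM types, 8 passed the filter, 1 was called higher and 0 lower, a share near the 11% of all genes called higher. The median difference was -0.16, and -0.17 after depth adjustment. The gene called was *Cbln4*, a cerebellin that acts at synapses (chr2:172036233-172043466), read in 24 of 36 positive and 34 of 73 negative cells. It reached 604 CPM in the positive cells and had a median of 0 in the negative cells, but the highest level, 1561 CPM, was in a negative cell. It was read in 13 of 15 cells with 32 or more *Pvalb* reads and in 11 of 21 with 1 to 31. The difference was 1.51, and 1.06 after depth adjustment, but 0.85 without V1 L5, where 12 of 16 negative cells had no read. *Hpse*, which shares a type name with *Cbln4*, differed by 0.07 and by -3.55 within S1 L4. *Calb2*, calretinin, differed by -0.39.

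Genes that define SOM cells and cells of the medial ganglionic eminence gave no call. All 12 passed the filter and 0 were called in either direction, beside 11% called higher and 0.651% lower of all genes. The median difference was 0.07, beside 0.34 over all genes. After depth adjustment it was -0.59, beside -0.01 over all genes. Of the 12, 2 genes were then above 0 and 2 at -1 or less, *Lhx6* (-1.08) and *Grin3a* (-1.01). Over all genes, 5.11% stood at -1 or less after depth adjustment. *Grin3a*, an NMDA receptor subunit typical of SOM cells, was read in 34 of 36 positive and 70 of 73 negative cells, with medians of 385 and 507 CPM. Its difference was -0.62 over all cells, -1.84 in S1 L4 and 0.75 in S1 L5, with -1.01 after depth adjustment and 0.19 without S1 L4. *Elfn1*, which sets the short-term facilitation of inputs to SOM cells, was read in 31 of 36 and 63 of 73 cells. *Lhx6* and *Sox6*, transcription factors of this lineage, were read in 30 and 31 of 36 positive cells and in 58 and 64 of 73 negative cells. *Sst* itself, used to keep the cells, ranged from 42.6 to 2977 CPM with a median of 977 CPM in the positive cells, and from 36.9 to 11525 CPM with a median of 1429 CPM in the negative cells.

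Split by the number of *Pvalb* reads, the channel genes did not all follow *Akr1c18*. Of 9989 genes, 27% stood at 1 or more and 2.81% at -1 or less in the 15 cells with 32 or more reads against the negative cells, and the median of all genes was 0.48. For the 21 cells with 1 to 31 reads the median was 0.23. *Kcnab3* differed by 2.79 in the first and by 2.37 in the second of these sets, *Nefh* by 3.05 and 1.67, *Kcns3* by 2.44 and 1.03, *Kcnc1* by 1.54 and 0.71 and *Cplx1* by 2.17 and 0.55. *Kcnc2* went the other way, with -0.05 and 1.11, as did *Kcna1*, with 0.31 and 1.49. The median of the fast-spiking list was 0.82 and 0.73.

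**Figure D5:**
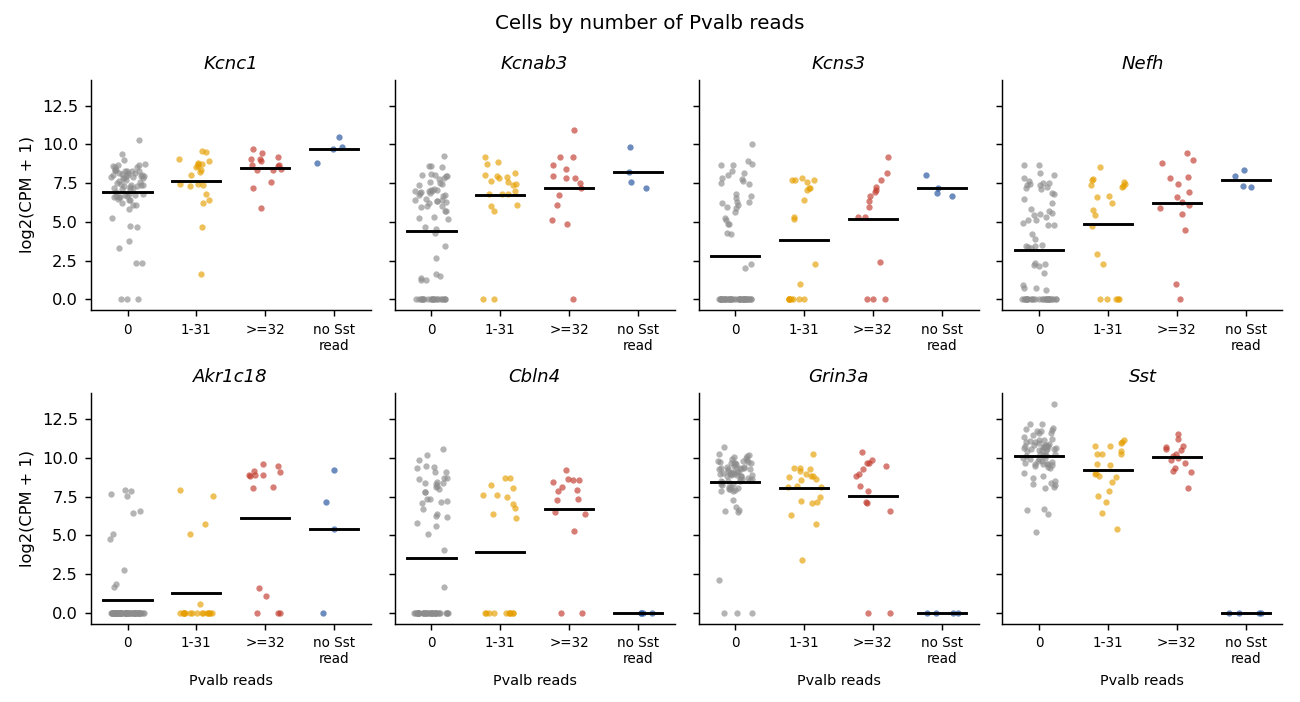
Levels of 8 genes as log2(CPM + 1) in each of 73 cells with 0, 21 with 1 to 31 and 15 with 32 or more Pvalb reads, and in the 4 cells without an Sst read (points, spread sideways at random; the bar is the mean). Akr1c18 is at 0 in most cells of the first 2 sets and has a read in 12 of 15 of the third, while Grin3a and Cbln4 are at 0 in all 4 cells without an Sst read.

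The 4 tdTomato-labelled cells without an *Sst* read, all from S1 L4 and from different recording days, were set beside the kept cells. Their *Pvalb* level was 758, 502, 921 and 94.4 CPM, in the order of recording days 2, 3, 4 and 5. The day 5 cell, with 29 *Pvalb* reads among 307046 counts, lay inside the range of the Pvalb-positive cells, which reached 257 CPM. It alone of the 4 had *Elfn1* reads, at 293 CPM, so the 4 are not of 1 kind in these genes. *Kcnc1* was at 824, 1426, 895 and 443 CPM in these cells and *Nefh* at 160.7, 148.7, 246 and 326 CPM. *Grin3a*, *Cbln4* and *Hpse* were at 0 in all 4, where the same limit of 3 reads, for counting error only, allowed between 1.04 and 9.77 CPM. The Pvalb-positive cells with *Sst* differed from them on both sides. Of the 36, 11 (30.6%) reached the lowest *Kcnc1* level of these 4 cells, 443 CPM, as did 3 of 73 negative cells (4.11%). That level belongs to the day 5 cell alone, so these shares rest on 1 cell. The other levels, from 824 CPM up, lay above the highest positive cell, at 814 CPM, and the highest negative cell had 1237 CPM. No *Grin3a* read was found in 2 of 36 and 3 of 73. One positive cell reached 443 CPM and had no *Grin3a* read. It held 530 CPM of *Kcnc1*, 1036 CPM of *Sst* and 383 CPM of *Cbln4*. Only 3667 genes were detected in this cell, and 2792 in the other positive cell without a *Grin3a* read. The median of the positive cells was 7726.5 detected genes. *Erbb4* and *Cox6a2* had reads in all 4 cells without *Sst*, at 45.8 to 450 CPM and at 22.8 to 141.2 CPM.

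By the rule of size and of 1 direction in every day, 199 genes were higher and 4 lower in the positive cells. The 10 largest were *Ankrd29* (2.51), an ankyrin repeat protein, *Trim23* (2.50), an E3 ubiquitin ligase, *Tmem50b* (2.35), *Add1* (2.32), the cytoskeletal protein alpha-adducin, *Dcun1d2* (2.32), a neddylation factor, *Nxt2* (2.29), of mRNA export, *Timm22* (2.28), of mitochondrial import, *Sugp2* (2.21), *Clns1a* (2.19) and *Pcdhac2* (2.19), a clustered protocadherin. Their depth-adjusted differences lay between 0.87 for *Pcdhac2* and 2.34 for *Sugp2*. *Ankrd29* was read in 23 of 36 positive and 13 of 73 negative cells, at up to 539 and 166.6 CPM, with a difference of 2.75 ± 0.98 within days (SD, n = 7). *Sugp2* overlaps *Armc6* on the other strand and *Pcdhac2* shares its locus with the protocadherin alpha genes, so reads of these may be mixed.

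The 4 genes that were lower in every day were *Zzz3* (-1.55), a subunit of a histone acetyltransferase complex that overlaps *Ak5* on the other strand, *Pkn2* (-1.48), a protein kinase, *Pde1a* (-1.34), a calmodulin-dependent phosphodiesterase, and *Dll1* (-1.23), a Notch ligand. *Pkn2* was read in 25 of 36 positive and 63 of 73 negative cells, with medians of 4.47 and 34.9 CPM. After depth adjustment these differences were -1.95, -1.43, -1.80 and -1.12, in the same order.

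The genes whose level was most like that of *Pvalb* over the 36 positive and 73 negative cells were *Akr1c18* (Spearman's rho 0.46), *Krt9* (0.42), *Tstd3* (0.41), *Ankrd29* (0.40) and *Kcnab3* (0.40). The cells share 1 protocol but not depth, and *Pvalb* itself had a rho of 0.26 with the number of detected genes. All negative cells tie at 0 for *Pvalb*, so this ranking partly repeats the split into groups. *Krt9*, a keratin, was read in 13 of 36 positive and 4 of 73 negative cells. *Tstd3*, which overlaps *Ccnc* and *Usp45* on the other strand, was read in 19 and 9. Too few negative cells had reads for *Krt9* or *Tstd3* to pass the filter without positive cells. Their differences and places in this ranking are thus partly set by the filter.

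In whole profiles, the positive cells were not each other's neighbours alone. For each cell the 5 most correlated cells from other recording days were found over the 1000 most variable genes, without the genes used to choose the cells. Of those of the positive cells 55.6% were themselves positive, beside 32% of the eligible cells. For the negative cells the share was 48.8%, beside 33.4%, so both groups had more positive neighbours than the eligible cells offered. The nearest cells had 7967 detected genes for positive and 7950 for negative cells, beside 6374 and 6385 among the eligible cells. Within the same area and layer the shares were 58.9% beside 39.5% for positive cells and 40.3% beside 29.8% for negative cells.

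Likeness to the 4 cells without an *Sst* read, the correlation with their mean profile over the same genes, ranged from 0.307 to 0.669 with a median of 0.596 in the positive cells and from 0.263 to 0.638 with a median of 0.462 in the negative cells. The means differed by 0.0571, above 0 in 6 of 7 days, with an SD over days of 0.0461. Across the 36 positive and 73 negative cells likeness had a rho of 0.84 with the number of detected genes. The depth-adjusted difference was 0.00924.

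Of all genes, 11% were called higher and 0.651% lower. The marker lists of other cells had between 0 and 7 genes past the filter, so a call in 1 list sets it little apart. The list with a called gene was that of oligodendrocytes. Its 6 markers summed to between 0 and 5914 CPM, with a median of 338 CPM, in the positive cells, and to between 0 and 9702 CPM, with a median of 194 CPM, in the negative cells. Of the 4 past the filter, *Mobp*, a myelin protein gene, was called higher, at 1.64 and at 1.44 after depth adjustment, and *Mbp* differed by 1.42 (0.70 after depth adjustment). *Mog* and *Mag*, defining markers of these cells, were read in 1 and 2 of 36 positive and in 2 and 3 of 73 negative cells. The part of these markers in the results was not tested. Summed medians in positive and negative cells were 54.4 and 16.8 CPM for 6 astrocyte markers, 95.2 and 80.0 CPM for 7 microglia markers, 9.31 and 15.4 CPM for 8 excitatory neuron markers, 0 and 0 CPM for 3 endothelial markers, and 1.43 and 0 CPM for 6 markers of VIP and LAMP5 interneurons, and no gene of these lists was called.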

How the data were processed

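The RNA of single cells was measured by Patch-seq. Per the submitters' processing notes, reads were demultiplexed with bcl2fastq 2.20 and aligned to mm10 with STAR 2.4.2a. The authors deposited read counts per gene without normalization, and RPKM values made with rpkmforgenes and RefSeq gene models. The strand setting of the counting is not given in the sources used here. Rows that share a symbol were summed, which turned 24490 rows into 23998 symbols. A further deposited table that repeats area and layer was not used.

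Counts were scaled to CPM and analysed as log2(CPM + 1), so a difference understates the change of low genes. The pseudocount is 1. The members and lists were chosen with earlier results of these data known. The text names every member of the 12 lists as needed, the 10 largest differences each way among genes called with 1 direction in every day used, and the 5 genes of highest Spearman's rho with *Pvalb*. Values of some list members are not reported here, and counts and medians of a list include them. *Kcnab3os*, *Armc6*, *Ak5*, *Ccnc* and *Usp45* are named only as overlapping genes. The cell with *Kcnc1* and no *Grin3a* was singled out after its values were seen. Variable genes were chosen as in the study (slope 1.5, offset 0.02). Dates in the titles were read as recording days, 9 in all, and days may share an animal. Each difference was also computed within the 7 days with at least 2 cells of each kind, and the SD over days is its spread. Depth-adjusted differences are least squares coefficients. Thinning drew 250000 reads per cell with the seed 1. The functions were tested on simulated data. Coordinates are from GENCODE M21 on GRCm38. The alternatives changed the *Pvalb* threshold, the scaling, the pseudocount, the filters, the summary over cells and the days or groups included. The software was R 4.3.3 with edgeR 4.0.16 (TMM scaling only), matplotlib 3.10.9, SciPy 1.17.1, pandas 2.3.3 and NumPy 2.4.6 under Python 3.11.15.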

Additional observations from a re-analysis of the deposited data

Results flagged for a closer look

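In groups of 4 to 10 cells, the highest or lowest cell was set against the rest by Dixon's criterion for each named gene and for depth, and 24 values stood apart, 22.6% of the sets of cells checked. The usual chance rate of about 1 in 20 groups assumes normally distributed values. Where no other cell of a group had a read, a lone cell with reads always stands apart. The share flagged here can therefore not be set against that rate. All values but 1 are log2(CPM + 1).

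Among the 10 Pvalb-positive V1 L4 cells, the shallowest, with 487006 counts, had 2.35 for *Kcna1* beside a median of 7.94, and 0 for *Kcnab3* (median 6.76), *Trim23* (5.41) and *Sugp2* (7.03). Other cells of this group stood apart with 0 for *Ppargc1a* (6.81) and *Dcun1d2* (6.83), and with 4.19 for *Dll1* and 5.22 for *Krt9*, both beside a median of 0. Among the 7 Pvalb-positive S1 L5 cells, the shallowest, with 544685 counts, had 0 for *Kcna2* (6.80), *Trim23* (6.39), *Tmem50b* (7.33) and *Clns1a* (7.30). The cell with the most *Pvalb* reads in this group had 9.61 for *Akr1c18*, beside a median of 0, and 0 for *Sugp2* (7.49). Single cells had 2.08 for *Pcdhac2* (7.32) and 4.01 for *Pde1a*, beside a median of 0.

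Among the 9 Pvalb-negative S1 L5 cells, 1 cell had a log10 total count of 5.11 beside a median of 5.92. The same cell, with 128379 counts, had 0 for *Kcnc2* (8.84) and *Grin3a* (8.28), and 8.94 for *Dll1*, beside a median of 0. Other cells had 0 for *Kcna1* (7.30), 4.54 for *Scn1a* (8.43), 2.99 for *Cplx1* (9.17) and 6.32 for *Ankrd29*, beside a median of 0.

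For 2 genes the difference between positive and negative cells was above 0 in all 3 days of V1 L4 and below 0 in both days of S1 L4 that held enough cells of each kind. The difference in S1 L4 minus that in V1 L4, over all cells, was -0.81 for *Kcna2* and -2.61 for *Bcan*. That the areas differ was not tested.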

How the results depend on the processing

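Of 9989 genes, 11% were called higher and 0.651% lower. These shares were 18.3% and 1.502% for 32 or more *Pvalb* reads against 0, 7.27% and 0.180% on the deposited RPKM values, 20.6% and 1.39% with a pseudocount of 0.1, and 1.17% and 0.0501% with a pseudocount of 10. By the mean of the differences within groups 1.26% were lower, and by that within recording days, which pairs cells by day, 13.9% were higher and 0.751% lower. Of settings chosen after seeing the data, a fit with area and layer gave 16.9% and 1.31%, the depth-adjusted fit 4.95% and 5.11%, both with no condition on the groups, and differences relative to the median of all genes 4.93% and 1.95%. The share of higher among all calls was 94.4% as reported, 49.2% after depth adjustment and 71.6% relative to the median.

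Of the fast-spiking list, 4 genes were called as reported, 1 with a pseudocount of 10, 2 by medians over cells, 1 after depth adjustment, where the list's median was 0.27 and not 0.75, and 2 relative to the median of all genes. Leaving out 1 recording day or 1 area and layer gave 9.70% to 18.6% higher and 0.561% to 1.81% lower calls and 2 to 6 fast-spiking calls, with list medians of 0.58 to 1.04. Leaving out 1 of the 4 cells without an *Sst* read gave likeness differences of 0.0511 to 0.0616. Lower calls passed 1.5 times the reported share without V1 L4 (1.81%), S1 L4 (1.55%), V1 L5 (1.13%), S1 L5 (1.64%) and day 4 (1.05%), and higher calls without S1 L4 (18.6%). Leaving out V1 L4, S1 L4 or S1 L5 left 2 groups that had to share a direction. Fast-spiking calls were 2 without day 4 or day 6 and 6 without day 8.

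The share of Pvalb-positive cells, 33%, was 13.8% with 32 or more reads and 22.9% with 10 CPM or more. With 32 or more reads it was 29.4% in S1 L4, 9.52% in V1 L4, 6.25% in S1 L5 and 0% in V1 L5, and with 10 CPM or more 18.8% in S1 L5 and 0% in V1 L5. The likeness difference, 0.0571, was 0.00924 after depth adjustment, a move of over 1 SD over days. Under the other alternatives run, nearest cells and likeness moved by less than 1 SD, as did 932 of 957 values of 33 single genes. The SD over days is a wide yardstick, with a median of 1.51 per gene over all genes. A move of less than 1 SD can therefore still be large beside the difference itself. *Kcnab3*, *Ankrd29*, *Trim23*, *Add1*, *Nxt2* and *Clns1a* kept their call in 29 of 29 settings, while *Kcnc1* and *Tpbg* each lost it in 10. Apart from *Kcnab3*, the genes that kept it were chosen from these data as the largest differences of 1 direction in every day. That they kept it is thus partly set by that choice. A cell with no *Pvalb* read may hold transcripts below the depth of its library.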

Other observations

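One kept cell had more *Pvalb* than *Sst* reads. This S1 L4 cell held 60.1 CPM of *Pvalb* and 42.6 CPM of *Sst* at 515983 counts and 7335 detected genes. It also held 713 CPM of *Kcnc1*, 283 CPM of *Kcnab3*, 205 CPM of *Kcns3* and 207 CPM of *Nefh*, together with 79.5 CPM of *Grin3a*, 106.6 CPM of *Cbln4* and 38.8 CPM of *Elfn1*.

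The only Pvalb-positive cell of V1 L5 had 9.29 CPM of *Pvalb* and 452 CPM of *Sst* at 2368268 counts. Its *Kcnc1* level, 757 CPM, lay above the highest of the 16 negative V1 L5 cells, 368 CPM, and its *Nefh* level, 372 CPM, above their highest, 197 CPM. It held 240 CPM of *Akr1c18*, beside at most 25.9 CPM in the negative cells, and 628 CPM of *Grin3a*, inside their range of 0 to 1195 CPM. These are values of 1 cell, without replicate.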
